A study of Mus musculus with 18 samples.

Results

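The genes described here are 10 genes of fatty acid synthesis, chosen by name: Scd1, Fasn, Acaca, Acacb, Acly, Elovl6, Me1, Srebf1, Gpam and Thrsp. They are 10 of the 18193 genes that could be read from the arrays, and each was read from the probe set with the highest mean over all 18 arrays among those annotated to that gene alone. Male C57BL6 mice were given D-galactosamine (GalN), an amino sugar toxic to hepatocytes, at 4.5 g per kg into the peritoneum, and liver and kidney were taken 24 h or 48 h later. Sham mice of the same strain and sex received saline and were killed at 24 h. Each of the 6 groups (liver and kidney at GalN 24 h, GalN 48 h and sham) had 3 arrays, marked A, B and C, of RNA from tissue pieces of organs perfused in situ. No sham group at 48 h was analysed here, so the 48 h comparisons with sham also compare different times after injection. The design text can be read to mean that RNA of the 3 mice was pooled. The p-values therefore measure the spread between these arrays, which may be partly technical.

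Fatty acid synthesis turns surplus carbohydrate into fat, and liver and adipose tissue are its main sites. Citrate leaves the mitochondrion and is split to acetyl-CoA, which is carboxylated to malonyl-CoA, condensed to palmitate with reducing power from NADPH, then elongated, desaturated and attached to glycerol. In liver the genes of these steps are known to be switched on together after feeding by insulin, through SREBP-1c, and by glucose, through ChREBP. Acly makes the cytosolic acetyl-CoA. Acaca and Acacb encode the cytosolic and the mitochondria-bound acetyl-CoA carboxylase. Fasn is the fatty acid synthase, Elovl6 lengthens palmitate to stearate, and Scd1 is the desaturase that makes monounsaturated fatty acids. Me1 supplies NADPH, Gpam starts glycerolipid assembly, Srebf1 encodes SREBP-1, and Thrsp encodes a nuclear protein of lipogenic tissue that is induced by thyroid hormone and carbohydrate.

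Values are log2 gcRMA expression values, on which a step of 1 is a doubling, and levels of different genes are not compared because each probe set has its own scale. The lowest value in the table was 2.21 and the array medians lay between 2.36 and 2.43. Within each group, any pair of arrays had an r of 0.983 to 0.998 over the probe sets. All 10 genes passed the filter on low values in both tissues. The tissue labels were checked on markers. Tat and Cps1, 2 hepatocyte genes, were at the floor in every kidney group, and Slc34a1, Lrp2 and Cubn, of the proximal tubule, were at the floor in every liver group. The other measured hepatocyte markers were not. The summed level of the 7, on the log2 scale, was 16.07 to 16.46 in kidney and 18.17 to 18.54 in liver. That of 8 proximal tubule markers was 10.10 to 11.62 in liver and 17.48 to 17.73 in kidney. Acaca and Acacb had readings that recurred to the last digit in several arrays (3 arrays for Acaca and 5 for Acacb), which were taken as background. Other arrays read below the recurring 7.54 of Acaca and below the recurring 6.11 of Acacb, so those values are not a floor. Acacb also recurred at 5.71, in 24 h liver B and sham kidney C, and no array read below that value. Folds with such groups are given as estimates of uncertain size.

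At 24 h after GalN, 6 of the 10 genes were lower in liver than in sham liver and none was higher. The transcription factor gene Srebf1 and its known targets Acly, Acaca, Acacb and Elovl6 fell by 1.79 to 3.47 on the log2 scale, and Thrsp fell by 3.35. Scd1, Gpam and Me1 had values that overlapped with those of sham and were not called. The median difference of the 10 genes was -1.99, against 0.00 over all 12071 genes tested in liver, of which 15.0% were called lower and 17.9% higher at this time. At an unadjusted p under 0.05, 7 of the 10 were lower and 0 higher, against 19.4% and 23.5% of all genes tested. Rank product called 4 lower and 0 higher, against 299 and 293 of all 12071 genes.

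Srebf1 read 7.64, 9.15 and 8.80 in 24 h livers A, B and C, against 12.45, 12.11 and 11.43 in sham livers. All 24 h livers lay below all sham livers, a fall of 11.0-fold (limma adjusted p = 0.00427). Thrsp read 10.20, 10.20 and 10.84 in 24 h livers, against 14.43, 13.80 and 13.06 in sham livers. The groups did not overlap, and Thrsp was 10.2-fold lower at 24 h (limma adjusted p = 0.0099). That call was lost when all 18 arrays shared 1 fit (adjusted p = 0.12).

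Of the enzymes upstream of palmitate, Acly read 10.59, 10.33 and 10.44 in 24 h livers, against 13.56, 12.69 and 12.23 in sham livers. The groups did not overlap, and Acly was 5.19-fold lower (limma adjusted p = 0.00153). Acaca, the cytosolic carboxylase, read 7.18, 7.54 and 6.79 in 24 h livers, against 9.22, 9.05 and 8.62 in sham livers. It was 3.47-fold lower without overlap (limma adjusted p = 0.00612), a size that its background reading leaves uncertain. Acacb, the carboxylase whose malonyl-CoA is known to restrain fatty acid entry into mitochondria, read 5.76, 5.71 and 5.92 in 24 h livers, against 8.53, 7.81 and 7.63 in sham livers. It was 4.57-fold lower without overlap, likewise of uncertain size (limma adjusted p = 0.000788). However, its other, dimmer probe set, which lay near the floor, differed by 0.34 in the opposite direction (adjusted p = 0.39). Fasn read 8.77, 8.81 and 8.72 in 24 h livers, against 11.70, 10.41 and 9.43 in sham livers. Here too every 24 h liver was below every sham liver, but the sham arrays spanned more than 2 log2 units and the difference of -1.75 was not called (95% interval -3.15 to -0.35, limma adjusted p = 0.0604). It was called without sham C (difference -2.29), and also with a filter at percentile 60, quantile normalization, median centring and array weights (adjusted p from 0.0132 to 0.0453).

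Of the genes that act after palmitate, Elovl6 read 7.21, 6.53 and 6.82 in 24 h livers, against 10.50, 9.71 and 8.95 in sham livers. The groups did not overlap, and the elongase was 7.29-fold lower (limma adjusted p = 0.00162). The desaturase Scd1 read 13.89, 14.00 and 13.91 in 24 h livers, against 14.18, 14.32 and 13.57 in sham livers. The groups overlapped, and the difference was -0.09 with a 95% interval of -1.21 to 1.03 (limma adjusted p = 0.942). Its second probe set, dimmer but above the floor, read 10.50, 10.10 and 9.43 in 24 h livers, against 11.33, 11.71 and 9.83 in sham livers. That set differed by -0.95, with overlap, and was not called. Gpam, the acyltransferase of glycerolipid assembly, read 12.03, 12.43 and 12.31 in 24 h livers and 12.84, 12.36 and 12.43 in sham livers (difference -0.28, 95% interval -0.80 to 0.24). Me1 read 12.11, 10.98 and 10.76 in 24 h livers and 12.34, 11.94 and 11.32 in sham livers (difference -0.58, 95% interval -1.56 to 0.39), and neither of the last 2 genes was called on these probe sets. The second Me1 probe set, also well above the floor, read 9.94, 9.47 and 9.81 in 24 h livers, against 11.75, 11.34 and 10.55 in sham livers. It was lower without overlap (difference -1.47, limma adjusted p = 0.0105), so the probe sets of Me1 differ in their call. In all, 7 of the 10 genes had every 24 h liver below every sham liver, against 22.5% of all genes tested. The 6 calls were made in all 6 fits that left out 1 of the arrays compared.

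**Figure D1:**
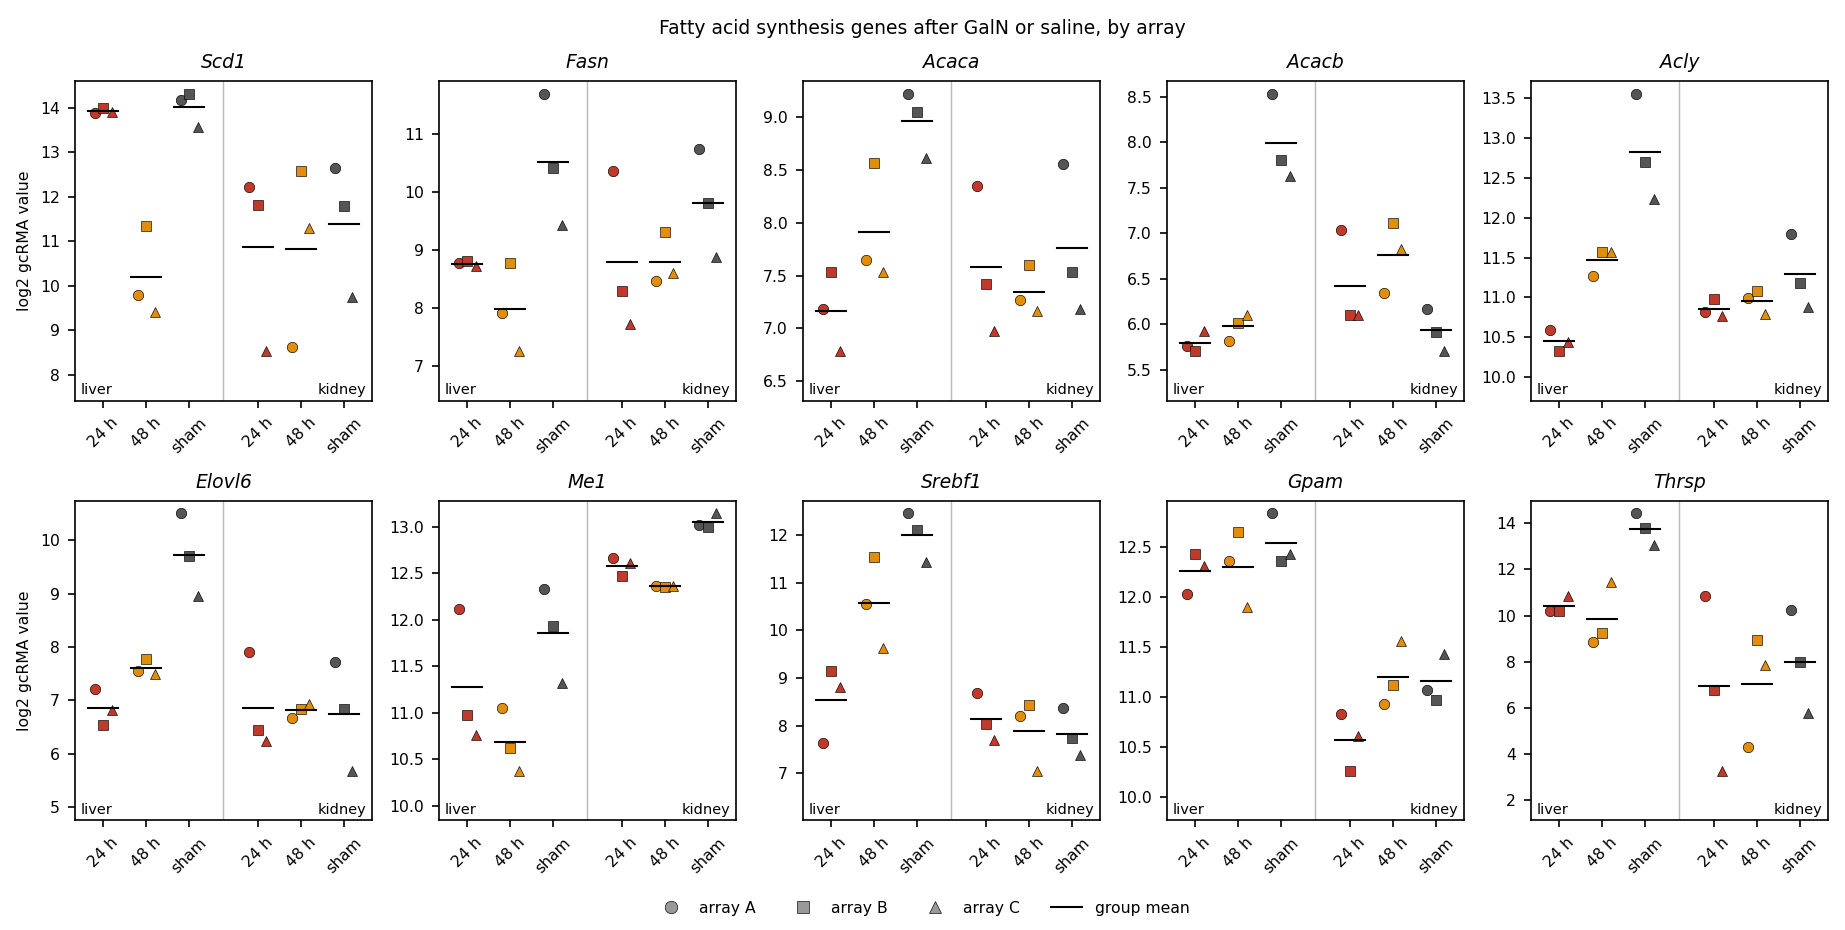
Log2 gcRMA value of each of the 10 genes (y axes, with a separate range for each gene) by group (x axes: GalN 24 h, GalN 48 h and sham, liver at left and kidney at right). Symbols mark arrays A, B and C and bars are group means (n = 3). In liver the 24 h points of Srebf1, Thrsp, Acly, Acaca, Acacb, Elovl6 and Fasn lie below all sham points, while those of Scd1 lie among them.

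At 48 h, 6 of the 10 genes were again lower in liver than in sham liver and none was higher, but they were not the same 6. Scd1 and Fasn were now called, while Srebf1 and Acaca were not. The median difference of the 10 genes was -1.72, against 0.03 over all genes tested, of which 3.94% were called lower and 6.24% higher. At an unadjusted p under 0.05, 9 were lower and 0 higher, against 9.63% and 15.7% of all genes tested. Rank product called 5 lower and 0 higher, against 145 and 132 of all 12071 genes. At both times the difference from sham was below 0 for all 10 genes. The comparisons at both times share the sham arrays, so they are not independent.

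Scd1 read 9.80, 11.35 and 9.42 in 48 h livers A, B and C, against 14.18, 14.32 and 13.57 in sham livers. Every 48 h liver lay more than 2 log2 units below every sham liver, and Scd1 was 14.3-fold lower (limma adjusted p = 0.00697). Its second probe set read 5.95, 7.34 and 3.91 in 48 h livers, against 11.33, 11.71 and 9.83 in sham livers, again without overlap. Thrsp read 8.85, 9.24 and 11.46 in 48 h livers, against 14.43, 13.80 and 13.06 in sham livers. It was 15.0-fold lower without overlap (limma adjusted p = 0.0175), although array C lay more than 2 log2 units above A and B. Without 48 h C the difference was -4.72, and without 48 h A, sham A or sham B it was -3.41, -3.58 or -3.89 and no longer called (adjusted p = 0.0527, 0.052 and 0.063). The call was also lost when all 18 arrays shared 1 fit (adjusted p = 0.111).

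Fasn read 7.91, 8.78 and 7.25 in 48 h livers, against 11.70, 10.41 and 9.43 in sham livers. The groups did not overlap, and the synthase was 5.80-fold lower (limma adjusted p = 0.0406). That call was lost without 48 h A, 48 h C, sham A or sham B, with differences of -2.50, -2.17, -1.94 and -2.59 (adjusted p from 0.0677 to 0.112). Elovl6 read 7.55, 7.78 and 7.49 in 48 h livers, against 10.50, 9.71 and 8.95 in sham livers. It was 4.33-fold lower without overlap (limma adjusted p = 0.0176), and the call was lost without 48 h A or sham B (differences -2.09 and -2.12, adjusted p = 0.0581 and 0.063).

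Acly read 11.27, 11.57 and 11.56 in 48 h livers, against 13.56, 12.69 and 12.23 in sham livers. It was 2.57-fold lower without overlap (limma adjusted p = 0.0366). Its call was lost without 48 h A, B or C or sham B (differences from -1.43 to -1.26, adjusted p from 0.0581 to 0.11). Acacb read 5.82, 6.02 and 6.11 in 48 h livers, against 8.53, 7.81 and 7.63 in sham livers. It was 4.03-fold lower without overlap, of uncertain size given its background reading (limma adjusted p = 0.00607), and was called whichever array was left out. Its dimmer probe set differed by 0.24 in the opposite direction (adjusted p = 0.643).

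The other 4 genes were not called at 48 h. Acaca read 7.65, 8.57 and 7.54 in 48 h livers, against 9.22, 9.05 and 8.62 in sham livers, below sham without overlap (difference -1.05, limma adjusted p = 0.098, but -1.37 and 0.0387 without 48 h B). Srebf1 read 10.55, 11.54 and 9.63 in 48 h livers, against 12.45, 12.11 and 11.43 in sham livers, with overlap of the groups (difference -1.42, 95% interval -2.80 to -0.05, limma adjusted p = 0.183). Me1 read 11.05, 10.62 and 10.38 in 48 h livers, below all sham livers at 12.34, 11.94 and 11.32 (difference -1.18, limma adjusted p = 0.127, but 0.013 with all 18 arrays in 1 fit). Gpam, at 12.36, 12.65 and 11.90 in 48 h livers, overlapped with its sham values (difference -0.24, 95% interval -0.76 to 0.28). In all, 8 of the 10 genes had every 48 h liver below every sham liver, against 10.8% of all genes tested.

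Between 48 h and 24 h the genes did not move as 1 group. Scd1 was lower at 48 h than at 24 h, while Srebf1 and Acly were higher, against 13.1% of all genes called lower and 14.6% called higher. Scd1 fell by 3.74 on the log2 scale, to 10.19 ± 1.02 in 48 h livers, against 13.93 ± 0.06 in 24 h livers (SD, n = 3 each, limma adjusted p = 0.00191). Srebf1 averaged 10.57 ± 0.96 in 48 h livers and 8.53 ± 0.79 in 24 h livers, 4.12-fold higher at 48 h without overlap (limma adjusted p = 0.0383). Acly averaged 11.47 ± 0.17 in 48 h livers and 10.45 ± 0.13 in 24 h livers, 2.02-fold higher without overlap (limma adjusted p = 0.0474). All 48 h livers lay below all 24 h livers for Scd1, as for 20.0% of genes tested, and above them for Srebf1, Acly and Elovl6, as for 20.8%. The transcript of the transcription factor and that of the desaturase thus differed in opposite directions between the times. The Scd1 call was made whichever array was left out. The Acly call was lost without any 1 of the 6 arrays (differences from 0.95 to 1.12, adjusted p from 0.0774 to 0.124). The mean of all Acly probe sets differed by 0.50 and the second set by 0.67, neither called (adjusted p = 0.316 and 0.209). The Srebf1 call was lost without 24 h A, 24 h C, 48 h A or 48 h B (differences 1.60, 2.18, 2.05 and 1.56, adjusted p from 0.0767 to 0.104).

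The differences of the other 7 genes between 48 h and 24 h ran from -0.79 (Fasn) to 0.75 (Elovl6), and none was called. The median over the 10 genes was 0.11, and over all genes tested 0. Over the 9 liver arrays the pairs of genes correlated with r from 0.02 (Scd1 with Srebf1) to 0.98 (Acly with Elovl6), with a median of 0.662 over 45 pairs. These values describe 3 groups of 3 arrays and carry the group differences given above.

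**Figure D2:**
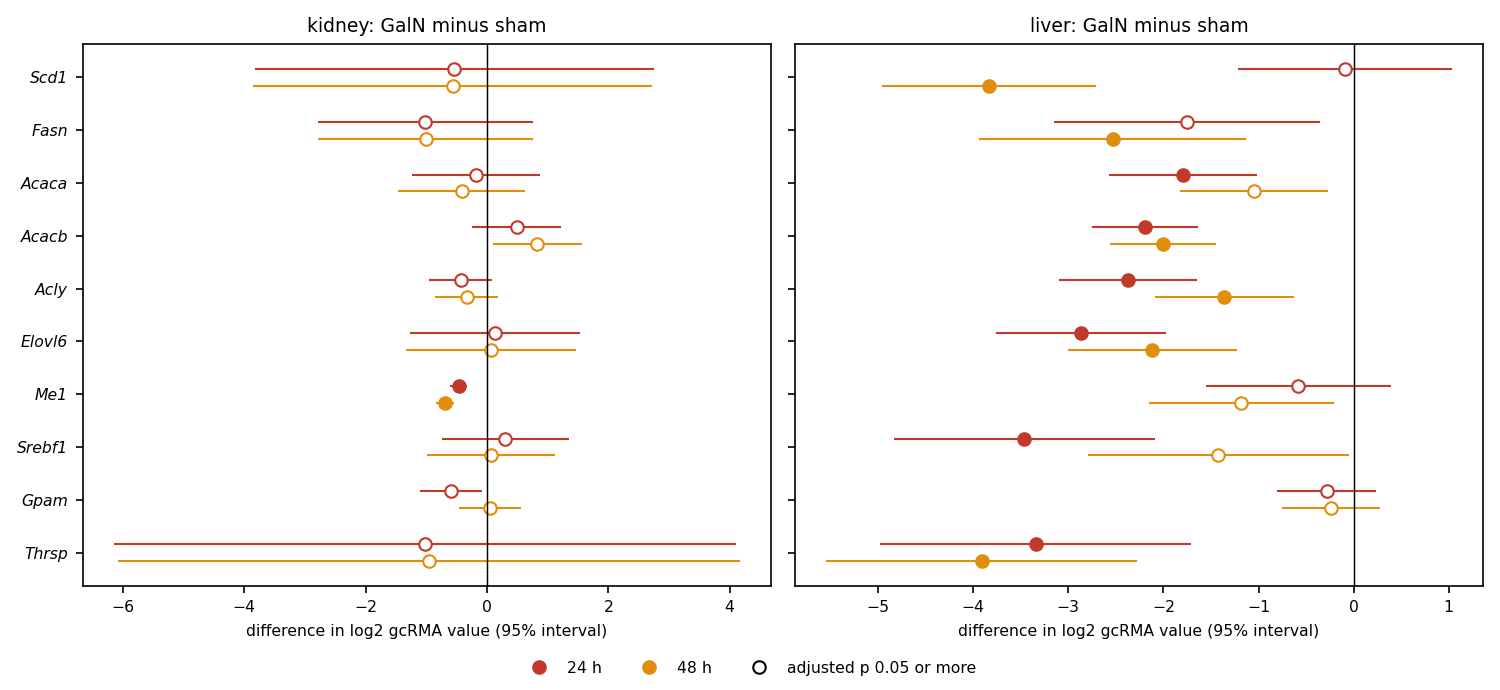
Difference in log2 gcRMA value from sham (x axes) with its 95% interval for each of the 10 genes (y axis), in kidney at left and liver at right, with separate x ranges. Filled points had a limma adjusted p under 0.05, open points did not. The liver points lie below 0 at both times, from -3.47 to -0.09 at 24 h and from -3.91 to -0.24 at 48 h, and in kidney only the Me1 points are filled.

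Markers of other cells also differed between the liver groups. The summed level of 9 measured macrophage markers, on the log2 scale, was 14.27 to 14.44 in 24 h livers, 13.92 to 14.17 in 48 h livers and 12.79 to 13.39 in sham livers. The sum of 7 hepatocyte markers was 18.34 to 18.43 in 24 h livers, 18.17 to 18.38 in 48 h livers and 18.51 to 18.54 in sham livers. That sum is dominated by Alb, Ttr, Apoa1 and Cyp2e1, and other hepatocyte genes lay further apart: Apob averaged 13.45 ± 0.03 in 24 h livers and 14.58 ± 0.37 in sham livers, and Tat 13.04 ± 0.57 in 24 h livers and 14.16 ± 0.21 in sham livers (SD, n = 3 each). The endothelial sum was 10.07 to 11.36 in 24 h livers, 10.11 to 10.22 in 48 h livers and 9.48 to 9.62 in sham livers. The sum of stellate cell and fibroblast markers was 13.13 to 13.19 in 24 h livers, 12.25 to 13.28 in 48 h livers and 12.24 to 12.46 in sham livers. The sum of 8 measured adipocyte markers was 10.60 to 11.33 in 24 h livers, 10.90 to 11.55 in 48 h livers and 9.0 to 10.19 in sham livers, with Adipoq, Lep, Retn, Cidea and Ucp1 at the floor in every liver group. Their part in the results was not tested, and in whole tissue fewer cells of a type and less RNA per cell cannot be told apart. Within sham livers, array A was the highest for 9 of the 10 genes and array C the lowest for 9. Among 48 h livers, array B was the highest for 7 genes and array C the lowest for 7. Actin read higher in its 3' than in its 5' control set, a measure of RNA quality, by 1.77 to 1.95 in 24 h livers, by 1.70, 1.77 and 2.56 in 48 h livers A, B and C, and by 1.48 to 1.86 in sham livers.

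The stretches of DNA before the gene starts were read from RefSeq (GRCm38.p6), which had entries for 9 of the 10 genes. They were searched on both strands, 250 bases before each start, for motifs of factors known to act on lipogenic genes. The 9 genes have 13 promoters there, 3 of them for Srebf1 and 2 each for Me1 and Gpam. The start used matches the outer edge of the gene in RefSeq for Elovl6, Thrsp, Acly and 1 of the 2 Me1 promoters. The other promoters, that of Fasn among them, have starts that differ from that edge, so the counts mix both kinds. The CCAAT box of NF-Y stood in 7 of the 13, of 6 genes (33.8% of all 32851 promoters hold it). The GC box of Sp1, GGGCGG, stood in 5 of the 13, of 4 genes (32.7% of all promoters). The sterol response element core CACCCCA stood in 1 of the 13, of Gpam (6.68% of all promoters), and the E-box CACGTG, which USF binds, in 0 (6.02% of all promoters). The promoters of Thrsp and Acly, genes that fell at both times in liver, are printed to show a CCAAT arrangement and a GC-box arrangement side by side. The Thrsp stretch is chr7:97417551-97417800 on the minus strand, with CCAAT boxes starting 79 and 52 bases before the gene start, the first on the opposite strand and read as ATTGG. The Acly stretch is chr11:100528001-100528250 on the minus strand, with 4 GC boxes, of which 3 lie on the opposite strand and read CCGCCC. Capitals mark the motifs.
Thrsp: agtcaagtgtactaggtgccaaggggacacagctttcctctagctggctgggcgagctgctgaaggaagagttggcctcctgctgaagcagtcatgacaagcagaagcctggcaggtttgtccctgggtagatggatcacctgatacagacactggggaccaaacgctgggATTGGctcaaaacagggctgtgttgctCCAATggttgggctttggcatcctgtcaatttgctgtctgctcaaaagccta
Acly: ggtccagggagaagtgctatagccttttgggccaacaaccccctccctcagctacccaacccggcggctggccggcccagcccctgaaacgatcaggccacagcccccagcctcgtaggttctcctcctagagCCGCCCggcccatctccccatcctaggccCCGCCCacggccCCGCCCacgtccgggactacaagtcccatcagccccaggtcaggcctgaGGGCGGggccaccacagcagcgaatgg
Before the Fasn start used, 3 CCAAT boxes were found, and 2 of them overlap. Short windows around the first (chr11:120824620-120824649, minus strand) and the second (chr11:120824592-120824621, minus strand) show them in capitals.
Fasn CCAAT 1: ccgcgcgccgccATTGGgccaccgagaacg
Fasn CCAAT 2: cggcctcggtgtCCAATtggtttcgatgtg
A match describes letters only and shows neither binding nor a cause of the values above.

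Other genes of the pathway were read from lists written with earlier results of these data known. Of 21 tested enzymes of fatty acid and acetyl-CoA supply, 15 were lower and 0 higher in liver at 24 h (median difference -1.28). Over all genes tested, 15.0% were called lower and 17.9% higher. Elovl5, an elongase of polyunsaturated fatty acids, averaged 11.17 ± 0.14 in 24 h livers and 13.64 ± 0.06 in sham livers (SD, n = 3 each, limma adjusted p = 3.37e-05). Slc25a1, which carries citrate out of the mitochondrion, fell by 1.72 (limma adjusted p = 0.000925), and Acsl5, an acyl-CoA synthetase, fell by 1.32 (limma adjusted p = 0.000499). At 48 h, against 3.94% of all genes tested called lower and 6.24% higher, 8 of the enzymes were lower than in sham and 0 higher (median -0.52). They included Fads1, a desaturase (fell by 1.63, limma adjusted p = 0.00479), Tecr, of the elongation cycle (fell by 1.55, limma adjusted p = 0.00536), and Elovl5 (fell by 0.66, limma adjusted p = 0.00939). At 48 h against 24 h, 10 of these enzymes were higher and 2 lower, the 2 being Tecr and Fads1. The shares over all genes tested were 14.6% and 13.1%. Tecr, like Scd1 on its brighter probe set, differed little from sham at 24 h (difference -0.04) and was lower at 48 h.

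Of 9 tested suppliers of NADPH, 1 was higher and 2 were lower in liver at 24 h (median 0.10). These shares, 11.1% and 22.2%, are near the 17.9% and 15.0% of all genes tested. Pgd, of the pentose phosphate pathway, rose 4.07-fold (limma adjusted p = 0.0195). Idh1 and Idh2, the cytosolic and mitochondrial isocitrate dehydrogenases, fell by 1.57 and 0.80 (limma adjusted p = 0.00147 and 0.0488), and at 48 h 0 of 9 were called by limma (3 had an unadjusted p under 0.05, all lower, against 9.63% of all genes, and rank product called 0). Of 13 genes of triglyceride assembly, 4 were lower and 1 higher at 24 h (30.8% and 7.69%, against 15.0% and 17.9% of all genes tested). Dgat1, which adds the last fatty acid, fell by 2.98 and Agpat2, which adds the second, fell by 1.81 (limma adjusted p = 0.00139 and 0.00325), while Agpat5 rose 2.06-fold (adjusted p = 0.00445). At 48 h Gpat3, an acyltransferase of the same step as Gpam, averaged 8.13 ± 0.50 in 48 h livers and 5.13 ± 0.81 in sham livers. It was 7.98-fold higher (limma adjusted p = 0.00981), and Agpat5 was again higher. By limma (3.94% of all genes tested), by rank product or at an unadjusted p under 0.05 (9.63%), 0 of the 13 were lower.

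Of 31 tested genes listed as regulators of lipogenesis, 11 were lower and 3 higher in liver at 24 h. Over all genes tested, 15.0% were called lower and 17.9% higher. The list also holds the sterol exporters Abcg5 and Abcg8, which were among those lower. It mixes genes of opposite action, so its counts give no direction of regulation. Insig1, which holds SREBP precursors in the endoplasmic reticulum, fell by 3.17 (limma adjusted p = 0.000251) and Ppargc1b, a coactivator of SREBP-1, fell by 3.26 (adjusted p = 0.00294). Prkab1, a subunit of AMP-activated kinase, rose by 1.02 (adjusted p = 0.00308), and Nfya, a subunit of NF-Y, rose 4.01-fold (adjusted p = 0.0238). Scap and the protease genes Mbtps1 and Mbtps2, which carry and cut SREBP precursors, and Nr1h3, the liver X receptor that acts on Srebf1, were among the 11. Mlxipl, the gene of ChREBP, was not called (difference -1.04, limma adjusted p = 0.0654). At 48 h only Insig1 and Ppargc1b were lower (fell by 1.87 and 2.72, limma adjusted p = 0.0079 and 0.0189). A further 2 were higher, among them the exporter Abcg5, by 0.84 (limma adjusted p = 0.0204). The shares over all genes tested were 3.94% lower and 6.24% higher. Of 12 genes of sterol synthesis and uptake that SREBP-2 acts on, 10 were lower at 24 h (median -3.02) and 11 at 48 h (median -2.22). The shares of all genes called lower at these times were 15.0% and 3.94%. The smallest p-values were those of Dhcr7, Sc5d and Stard4 at 24 h (differences -4.42, -2.67 and -3.19) and those of Cyp51, Stard4 and Dhcr7 at 48 h (differences -2.69, -2.67 and -2.13).

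**Figure D3:**
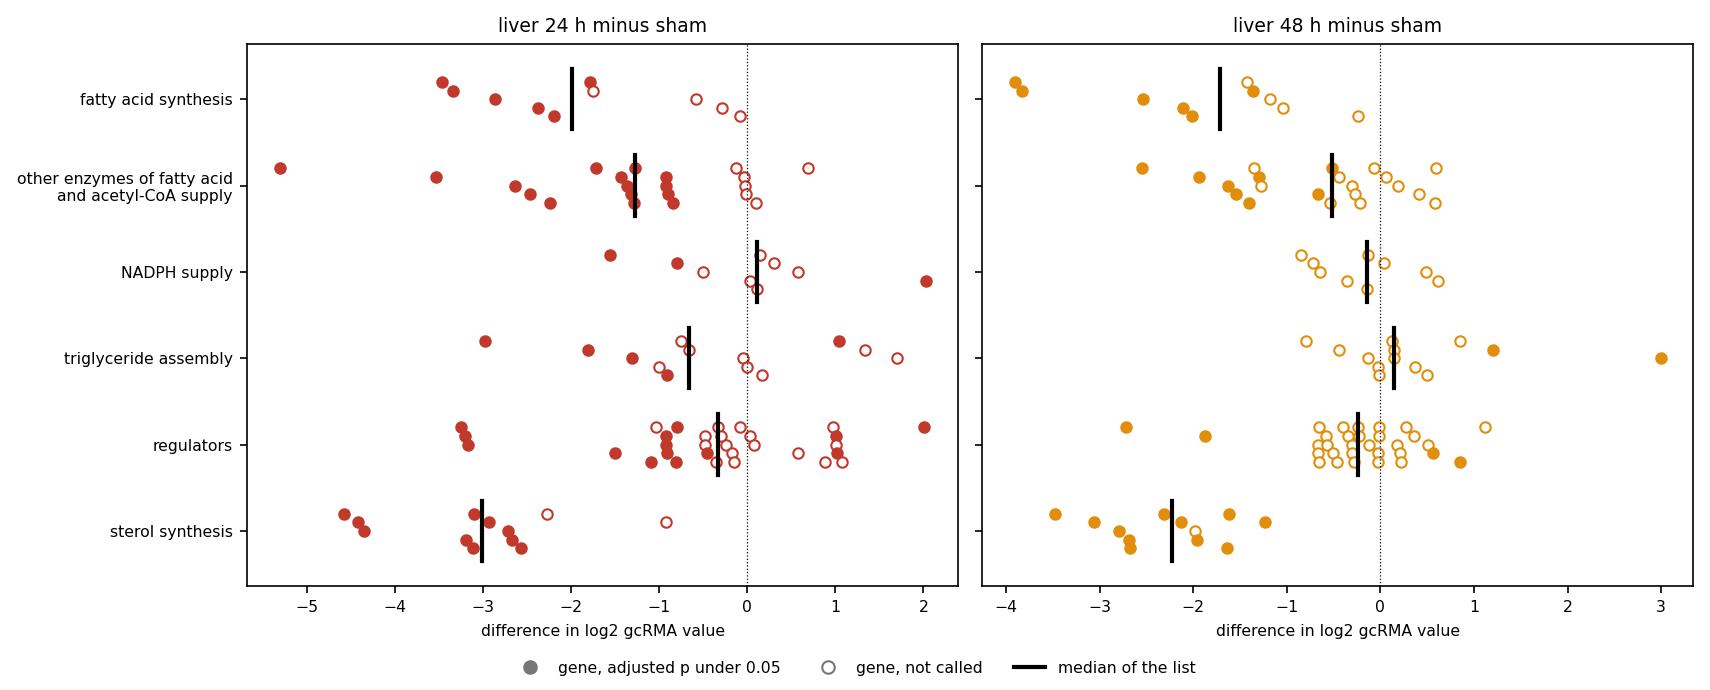
Difference in log2 gcRMA value from sham in liver (x axes) at 24 h (left) and 48 h (right) for the genes of each list (y axis). Filled points had a limma adjusted p under 0.05, open points did not, and bars are list medians. The medians of the fatty acid synthesis genes lie at -1.99 and -1.72, those of the other enzymes at -1.28 and -0.52, and those of sterol synthesis at -3.02 and -2.22.

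In kidney, Me1 was the only 1 of the 10 genes called at either time, and it was lower at both. At 24 h, 3.10% of the 12003 genes tested were called lower and 2.21% higher, and at 48 h 1.40% and 1.29%. Me1 read 12.66, 12.47 and 12.62 in 24 h kidneys, against 13.02, 13.00 and 13.15 in sham kidneys, 1.39-fold lower (limma adjusted p = 0.0189). It read 12.37, 12.36 and 12.37 in 48 h kidneys, 1.61-fold lower than in sham kidneys (limma adjusted p = 0.00787). The treated kidneys lay below all sham kidneys at both times, as for 14.3% of genes tested at 24 h and 15.6% at 48 h. Its second probe set read 12.57, 12.31 and 12.49 in 24 h kidneys, 12.27, 12.40 and 12.36 in 48 h kidneys and 12.86, 12.82 and 13.01 in sham kidneys, with no overlap with sham. The 24 h call was lost without sham A or sham B (differences -0.49 and -0.50, adjusted p = 0.0523 and 0.0602). Both calls were lost when all 18 arrays shared 1 fit and in the rank product test.

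The other 9 genes of kidney were not called at either time, and several varied more within a group than between groups. Scd1 read 12.23, 11.82 and 8.53 in 24 h kidneys A, B and C, 8.63, 12.58 and 11.29 in 48 h kidneys, and 12.66, 11.79 and 9.75 in sham kidneys. Each group spanned about 3 log2 units or more, and the 95% interval of its difference from sham ran from -3.83 to 2.75 at 24 h. Thrsp read 10.83, 6.79 and 3.29 in 24 h kidneys, 4.30, 8.95 and 7.86 in 48 h kidneys, and 10.25, 7.98 and 5.77 in sham kidneys. Its groups overlapped throughout, with a 95% interval at 24 h from -6.15 to 4.10. The rank product test called Thrsp lower at both times (adjusted p = 0.0306 and 0.0426). Fasn read 10.36, 8.29 and 7.72 in 24 h kidneys, 8.47, 9.32 and 8.61 in 48 h kidneys, and 10.75, 9.81 and 8.88 in sham kidneys (differences -1.02 and -1.01, limma adjusted p = 0.464 and 0.529).

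The other 6 kidney genes were not called. Acly read 10.82, 10.99 and 10.76 in 24 h kidneys, 11.00, 11.08 and 10.79 in 48 h kidneys, and 11.80, 11.18 and 10.88 in sham kidneys. Acaca read 8.35, 7.42 and 6.98 in 24 h kidneys, 7.27, 7.60 and 7.16 in 48 h kidneys, and 8.56, 7.54 and 7.19 in sham kidneys. Elovl6 read 7.90, 6.45 and 6.24 in 24 h kidneys, 6.67, 6.84 and 6.93 in 48 h kidneys, and 7.71, 6.83 and 5.68 in sham kidneys. For all 3 genes the groups overlapped at both times, and the differences from sham ran from -0.43 to 0.12. Srebf1 likewise overlapped, at 8.68, 8.03 and 7.69 in 24 h kidneys, 8.20, 8.43 and 7.06 in 48 h kidneys, and 8.38, 7.75 and 7.38 in sham kidneys. Acacb read 7.04, 6.11 and 6.11 in 24 h kidneys, 6.35, 7.11 and 6.82 in 48 h kidneys, and 6.17, 5.92 and 5.71 in sham kidneys. Its 48 h kidneys lay above all sham kidneys, as for 11.5% of genes tested, by a mean of 0.83 that was not called (limma adjusted p = 0.206). Gpam read 10.83, 10.26 and 10.61 in 24 h kidneys, 10.93, 11.12 and 11.56 in 48 h kidneys, and 11.07, 10.98 and 11.43 in sham kidneys. All its 24 h kidneys lay below sham, by a mean of 0.59 that was not called (limma adjusted p = 0.153).

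Between 48 h and 24 h in kidney, 0 of the 10 genes were called by limma, against 0.958% of all genes called higher and 0.650% called lower. Of the 10, 2 had an unadjusted p under 0.05, against 18.3% of all genes tested, Me1 (difference -0.22, limma adjusted p = 0.13) and Gpam (difference 0.64, limma adjusted p = 0.189). The medians of the 10 genes in kidney were -0.45 at 24 h and -0.37 at 48 h against sham, and -0.01 between the times, against 0 over all genes tested in each. Of the other pathway genes, Oxsm (mitochondrial fatty acid synthesis), Pklr (pyruvate kinase) and Hsd17b12 (elongation) were lower in kidney at 24 h (fell by 0.95, 0.81 and 0.38, limma adjusted p = 0.0223, 0.0362 and 0.0497). Hacd2, of the elongation cycle, was lower at 48 h (fell by 0.54, adjusted p = 0.0331). Of the NADPH suppliers Taldo1, of the pentose phosphate pathway, was lower at 24 h (fell by 0.35, limma adjusted p = 0.0407). Of the 14 genes of triglyceride assembly and the 31 regulators, limma and rank product called 0 in kidney at either time. At an unadjusted p under 0.05, limma had 3 of the 14 and 7 of the 31 at 24 h, and 2 and 5 at 48 h, against 23.8% and 19.4% of all genes tested at 24 h and 48 h. The sterol genes were called lower for 4 of 12 at 24 h and 3 of 12 at 48 h, against 3.10% and 1.40% of all genes tested. Nsdhl and Idi1 were among them at both times.

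The kidney values of several genes moved with markers of adipocytes, a cell of the fat around the kidney that also makes fatty acids. Adipoq, the adiponectin gene, read 8.42, 9.23 and 2.22 in 24 h kidneys, 2.21, 11.41 and 9.42 in 48 h kidneys, and 8.01, 7.07 and 3.75 in sham kidneys. The arrays in which it was at the floor, 24 h C and 48 h A, were also the lowest of all 9 kidneys for Scd1 and Thrsp. Fabp4, the adipocyte fatty acid binding protein, read 14.51, 14.05 and 11.91 in 24 h kidneys, 11.72, 14.50 and 13.70 in 48 h kidneys, and 13.97, 13.57 and 12.70 in sham kidneys. Ucp1, the uncoupling protein of brown fat, was at 10.95 in 24 h A and 7.66 in sham A and at the floor in the other 7 kidneys, and Cidea, also of brown fat, at 9.10 and 6.63 in the same 2 arrays. Array A was the highest of its group for 9 of the 10 genes in 24 h kidneys and for 8 in sham kidneys. Array C was the lowest for 7 and 8. Sham livers had the same order, with A the highest for 9 genes and C the lowest for 9. Adipoq, Lep, Retn, Cidea and Ucp1 were at the floor in those livers. What orders the arrays was not tested.

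The summed level of the 8 measured adipocyte markers was 14.69, 14.14 and 11.95 in 24 h kidneys, 11.76, 14.73 and 13.83 in 48 h kidneys, and 14.03, 13.60 and 12.73 in sham kidneys, with Lep at the floor in every group. Over the 9 kidney arrays, Scd1 correlated with Fabp4 with r = 0.97 (Spearman rho 0.85, and r = 0.89 over 7 arrays without the 2 farthest) and with Adipoq with r = 0.92 (rho 0.683, and r = 0.77 over 7). Thrsp correlated with Fabp4 with r = 0.90 (rho 0.833, and r = 0.75 over 7), and Acaca with Ucp1 with r = 0.88 (rho 0.822, and r = 0.58 over 7). Ucp1 was at the floor in those 7 arrays, so its r over 7 compares floor readings only. Its rho ranks mostly such readings, and neither value bears on the strength of that pair. The pairs named are among the highest, and other pairs were weaker. With Adipoq, r was 0.79 for Thrsp, 0.60 for Acacb, 0.50 for Elovl6, 0.44 for Acaca and 0.44 for Fasn. It was 0.245 for Srebf1, 0.229 for Acly and 0.08 for Gpam. Me1 had r = -0.25 with Adipoq (rho -0.35, and r = -0.87 over 7). These correlations describe 9 arrays of 3 groups, and Ucp1 rests on 2 arrays. A covariate of marker level was also fitted, chosen after the data were seen. It was the mean of the standardised values of the adipocyte markers that rose above the floor in kidney, not the summed level. With it, Me1 was still called lower at 24 h and 48 h (differences -0.46 and -0.68, limma adjusted p = 0.0302 and 0.0215). The Scd1 differences were then -1.33 and -1.38 (adjusted p = 0.0871 and 0.106), those of Thrsp -2.23 and -2.20 (adjusted p = 0.146 and 0.186), and no other gene of the 10 was called.

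**Figure D4:**
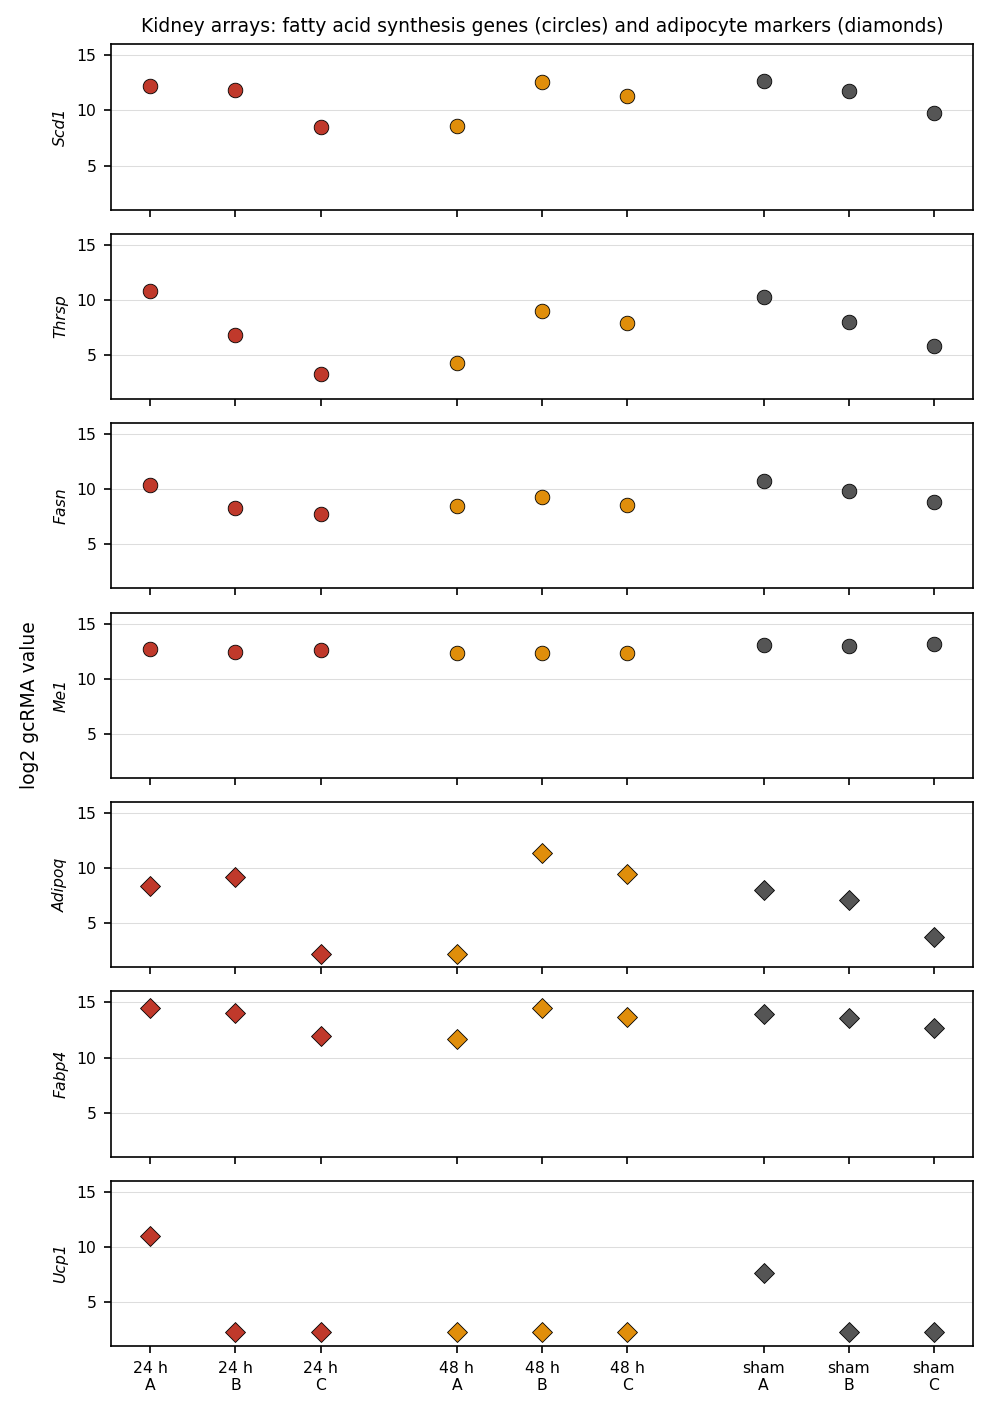
Log2 gcRMA value (y axes, 1 to 16) in each kidney array (x axis: GalN 24 h, GalN 48 h and sham, arrays A, B and C) of Scd1, Thrsp, Fasn and Me1 (circles) and of the adipocyte markers Adipoq, Fabp4 and Ucp1 (diamonds). Scd1 and Thrsp are lowest in 24 h C and 48 h A, where Adipoq reads 2.22 and 2.21, while Me1 stays between 12.36 and 13.15.

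The responses of kidney and liver were set against each other in 1 fit of all 18 arrays. At 24 h the kidney response minus the liver response was called above 0 for 5 of the 10 genes and below 0 for none, against 13.9% of all 12412 genes tested called above 0 and 16.6% below. For Srebf1 the kidney response was 0.30 and the liver response -3.47, a difference of 3.77 (95% interval 2.15 to 5.38, limma adjusted p = 0.00181). For Elovl6 the responses were 0.12 in kidney and -2.87 in liver (difference 2.99, limma adjusted p = 0.00611). For Acacb they were 0.49 in kidney and -2.19 in liver (difference 2.68, limma adjusted p = 0.000214), for Acly -0.43 in kidney and -2.38 in liver (difference 1.94, adjusted p = 0.00184), and for Acaca -0.18 in kidney and -1.79 in liver (difference 1.61, adjusted p = 0.0447). The Acaca call was lost in 8 of the 12 fits that left out 1 array: liver 24 h A or C, kidney 24 h A or B, sham liver A or B, or sham kidney B or C (differences from 1.23 to 1.69, adjusted p from 0.0617 to 0.11). For Acacb the difference between the responses of the dimmer probe set was -0.34 (adjusted p = 0.401). Both organs held background readings of Acacb and of Acaca, so the sizes of those 2 differences are uncertain. On its second probe set Me1 was called too (difference 1.03, adjusted p = 0.028).

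At 48 h the difference was called for 1 of the 10 genes, Acacb, with 0.83 in kidney and -2.01 in liver (difference 2.84, limma adjusted p = 0.000668, of uncertain size for the same reason, and -0.24 for the dimmer probe set), against 4.71% of all genes called above 0 and 8.48% below. The differences of all 10 genes were above 0 at 48 h, with a median of 1.50, against 1.78 at 24 h and -0.04 and -0.01 over all genes tested at 48 h and 24 h. Acly and Elovl6 were called as well without sham liver C (differences 1.33 and 2.57) or without sham kidney A (differences 1.28 and 2.67). For Scd1 the kidney response was -0.57 and the liver response -3.83, but with the spread of the kidney arrays the difference of 3.27 (95% interval 0.03 to 6.50) was not called (limma adjusted p = 0.184). For Thrsp the intervals of the difference ran from -2.68 to 7.32 at 24 h and from -2.05 to 7.95 at 48 h. The data therefore bound the contrast between the organs loosely for these genes.

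Without GalN, sham liver was above sham kidney for 7 of the 10 genes and below it for 1, against 19.0% and 28.8% of all genes tested. Thrsp averaged 13.76 ± 0.68 in sham liver and 8.0 ± 2.24 in sham kidney, and Srebf1 12.00 ± 0.52 in sham liver and 7.83 ± 0.50 in sham kidney (SD, n = 3 each, differences 5.76 and 4.16, limma adjusted p = 0.0095 and 1.23e-05). Elovl6, Acly and Gpam were also higher in sham liver, by 2.98, 1.54 and 1.38 (limma adjusted p from 0.00012 to 0.00029). Acacb and Acaca, with background readings in sham kidney, were 4.16-fold and 2.30-fold higher in sham liver, sizes that are uncertain (limma adjusted p = 2.45e-05 and 0.023). The dimmer Acacb probe set differed by 0 (adjusted p = 1). The Acaca call was lost without sham liver A or B or sham kidney B or C (differences from 0.92 to 1.16, adjusted p from 0.0613 to 0.106). Me1 was the exception, at 11.86 ± 0.51 in sham liver and 13.05 ± 0.08 in sham kidney (difference -1.19, limma adjusted p = 0.0046). All sham livers lay above all sham kidneys for Scd1, as for 23.5% of genes tested (difference 2.62, adjusted p = 0.0565), and Scd1 was called without sham kidney A (adjusted p = 0.039) and in 8 of 11 other alternatives (adjusted p from 0.0166 to 0.0497). With the letter as a block its adjusted p was 0.0388, and 0.0484 as a random block. Fasn overlapped (difference 0.70, adjusted p = 0.451). In 24 h livers Srebf1 averaged 8.53 ± 0.79, a range that overlapped with sham kidney.

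Over the 9 liver arrays, the genes whose values most resembled the mean standardised pattern of the 10 were Gkn1 (r = 0.98), Dntt (r = 0.97), Fbn2 (r = 0.97), Madd (r = 0.96) and Il15 (r = 0.95). Gkn1, Dntt and Fbn2 read at or near the floor in all 6 GalN livers and, at most, 5.28 in sham livers, so their likeness rests on the sham arrays. Over the 9 kidney arrays they were Orm1 (r = 0.95), Ankrd16 (r = 0.93), Lnx1 (r = 0.92), Mmd (r = 0.90) and Lsm4 (r = 0.90). Orm1, an acute phase protein gene, read 7.14, 3.33 and 2.59 in 24 h kidneys, 2.45, 5.79 and 3.18 in 48 h kidneys, and 6.95, 4.41 and 2.43 in sham kidneys. It shared the high arrays 24 h A and sham A with most of the 10 genes.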

How the data were processed

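Total RNA of liver and kidney was hybridised to Affymetrix Mouse Genome 430 2.0 arrays, 1 per sample, per the labels and the design text. The label field names Cy3 although the platform is single-colour. The authors deposited 1 table of log2 gcRMA values, made with the affy and gcRMA packages, per the design text and the submitters' processing notes. Their version is not given in the sources used here. Of 45101 probe sets, 64 control sets were left out, 34945 are annotated to 1 gene, 932 to several and 9160 to none. Of the 34945, 34741 had an Entrez number that RefSeq lists for mouse, which altered 0 names. The values were used as deposited. The arrays have no read depth, and their number (3 per group) limits the precision.

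Groups came from the labels. Genes above the array median in at least 3 of the 9 arrays of a tissue were tested with limma 3.58.1 (R 4.3.3, lmFit and eBayes with an intensity trend), as a two-sided test. A gene was called where its p-value, adjusted over all genes tested by the method of Benjamini and Hochberg, was under 0.05. Each tissue had a fit of 9 arrays, and comparisons between tissues used all 18. Every adjusted p-value is from limma unless the rank product test is named. That test used 9 ratios and 100 permutations. All 10 genes were described in every comparison. From each other list, up to 3 called genes with the smallest p against sham were named, and others named were chosen after their values were seen. The genes, lists and motifs were chosen with earlier results of these data known. Groups were taken to hold background where a reading recurred exactly in another array, a rule also made with values known. The methods were tested on simulated data. The closing section gives the alternatives. Whether a letter marks 1 mouse in both organs is not stated.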

Additional observations from a re-analysis of the deposited data

Results flagged for a closer look

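At 24 h, 5 of the 10 genes responded differently in kidney and in liver by a test of that difference, in the fit of all 18 arrays. The kidney response minus the liver response was 3.77 for Srebf1, 2.99 for Elovl6, 2.68 for Acacb, 1.94 for Acly and 1.61 for Acaca. At 48 h the same test marked Acacb, at 2.84. The sizes for Acacb and Acaca are uncertain, since both organs held background readings. Kidney adipocyte markers varied strongly between arrays of each group, as given above, and their part in these differences was not tested.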

How the results depend on the processing

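The arrays limit the precision: 3 per group, no sham at 48 h, and background readings in Acaca and Acacb. Of 31 called results of the 10 genes, 14 were called under every alternative. Counts of called genes changed by more than 1.5 times as follows. In liver at 48 h against sham (6 called), 2 remained with only the 6 arrays compared. In liver at 48 h against 24 h (3 called), 1 was called with no filter. Second probe sets were tested for 7 genes (not Srebf1, Fasn or Acaca): between the liver times 1 of the 7 was called, where Acly lost its call. In kidney, 0 were called with all 18 arrays in 1 fit at either time, and 0 at 24 h with only 6 arrays (1 called at each time otherwise). Between the organs at 24 h (5 called), second probe sets were called for 3 of the 7, Acly, Elovl6 and Me1, where Acacb lost and Me1 gained a call. At 48 h (1 called), 2 were called with a filter at percentile 60, with median centring, with the letter as a replicate block and with treatment and letter as a random block (added after the data were seen), 3 with the mean of probe sets, 5 with array weights and 0 of the 7 with second probe sets. The second Acacb set reversed its differences, to 0.34 and 0.24 in liver at 24 h and 48 h and to -0.34 and -0.24 between the organs. It lies near the floor. The second Elovl6 set read exactly 6.78 in every 24 h liver and in 24 h kidney A. The second Acly set read exactly 10.79 in 48 h liver A, 24 h kidney C and sham kidney C. The sizes of the differences on those second sets are therefore uncertain, as for Acaca and Acacb. Leaving out 1 array gave 6 to 7 called genes in liver at 24 h, 2 to 6 at 48 h, 1 to 2 between the times, 0 to 1 and 1 in kidney at 24 h and 48 h, 0 between the times, 4 to 5 and 1 to 3 between the organs, and 7 to 9 between sham tissues. With the letter as a replicate block, Fasn, Acly and Thrsp lost their call in liver at 48 h (adjusted p = 0.0587, 0.0773 and 0.053), Me1 gained one (0.0376), and Acly lost its call between the times (0.0791). Between the organs the block added Elovl6 at 48 h (0.027) and Scd1 in sham tissues (0.0388). Correlations of same-letter deviations ran from -0.12 to 0.25, and in no pair of groups were all 3 above 0.1, so the letters are not taken as pairs. Each sham liver correlated best with the sham kidney of its own letter (0.22, 0.03 and 0.25 for A, B and C), but sham kidney B correlated best with sham liver A (0.06), a hint from the data and not the design. By rank product Acaca and Acacb were not called in liver at 24 h (adjusted p = 0.117 and 0.0523), nor Acly at 48 h (0.109). Over all genes, leaving out sham B changed the count from 1228 to 448 in liver at 48 h and from 637 to 15 in kidney at 24 h, leaving out sham A from 323 to 29 in kidney at 48 h, and leaving out 48 h A from 193 to 1 in kidney between the times. Array weights raised the count from 1228 to 4728 in liver at 48 h and from 323 to 1245 in kidney. Rank product called 592, 277, 172 and 219 genes in liver at 24 h and 48 h and in kidney at 24 h and 48 h. Other causes were not tested.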
